A study of Mus musculus with 8 samples.

Results

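Vascular and leptomeningeal nuclei made up 104 of the 11518 nuclei retained from the hippocampus of mouse pups at postnatal day 21. They were chosen from their RNA, and 20 were called endothelial, 21 mural and 63 leptomeningeal. A nucleus entered a set when at least 3 of its 5 genes had a UMI (a unique molecular identifier, which counts an RNA molecule once) and when Slc17a7 and Gad2, markers of excitatory and inhibitory neurons, together had no more than 1. The endothelial genes were Flt1, Cldn5, Pecam1, Mecom and Tek, the mural genes were Pdgfrb, Rgs5, Notch3, Abcc9 and Ebf1, and the leptomeningeal genes were Col1a2, Col3a1, Dcn, Slc6a13 and Bnc2. A nucleus was retained with 500 to 7000 detected genes, 1000 to 70000 ATAC counts and a mitochondrial share of UMIs under 2%. No nucleus met the rule in more than 1 set.

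RNA and chromatin accessibility were measured together in each nucleus with a droplet multiome assay. Wild-type C57BL/6J dams were fed amino acid-defined diets with folic acid at 2 mg/kg (MF) or 20 mg/kg (HF) from before mating until the end of lactation, and hippocampi of male pups were taken. There were 2 libraries per diet (MF1 and MF2, then HF1 and HF2). How many pups each library drew on is not given in the sources used here. The p-values below therefore rest on values per library, and what they say of the spread between pups is not known. The study asked how a high maternal intake affects the cell types of the young hippocampus.

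Endothelial cells line the vessels and, in the brain, form the blood-brain barrier with tight junctions and selective transporters. Mural cells are the pericytes and smooth muscle cells that wrap them, and both share a basement membrane of laminins and type IV collagen. Leptomeningeal cells are the fibroblasts and barrier cells of the pia and arachnoid, which make fibrillar collagen, retinoic acid and prostaglandin D synthase. Folate reaches the brain across these barriers and the choroid plexus.

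The 104 nuclei were shallow. Their median was 1827 UMIs, against 6724 in the other 11414 nuclei, and the median ATAC count was 10455 against 17772. Among the others, nuclei with no more than 1 UMI of Slc17a7 and Gad2 had medians of 3428.5 UMIs and 15027 ATAC counts. Microglia-like nuclei, defined below, had 1804 and 11969, so low depth was not particular to the 104. Median UMIs were 1654 in endothelial, 1459 in mural and 2175 in leptomeningeal nuclei. A tail of 7 nuclei held over 5000 UMIs, of which 6 were leptomeningeal and 1 was mural, 5 came from HF1 and 2 from HF2. These deep nuclei held 40.8% of all leptomeningeal UMIs, and 52.8% of those in HF1, and many leptomeningeal levels below are also given without them. A doublet score over 0.05 was found in 28 of the 104 nuclei (26.9%) against 15.2% of all other nuclei, and in 7 of the 7 mural nuclei of HF1. The share was 8.84% in the others with no more than 1 UMI of Slc17a7 and Gad2, and 7.59% in microglia-like nuclei. Across the libraries, 111 of 14186 distinct barcodes occurred more than once. Of the 104 nuclei, 4 had such a barcode, and none of these barcodes belonged to a chosen nucleus in the other library. Whether libraries shared cells was not tested further.

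The 5 endothelial genes were each detected in 11 to 19 of the 20 endothelial nuclei. Flt1, a receptor for vascular endothelial growth factor, had a UMI in 19 of 20 endothelial nuclei and in 0.350% of all other nuclei. Cldn5, the main claudin of brain endothelial tight junctions, was detected in 18 of 20, and in 0 of 21 mural and 0 of 63 leptomeningeal nuclei, which allow up to 14.3 and 4.76% of nuclei with a UMI. Such limits do not bear on nuclei that express a gene without a UMI being caught. Mecom, a transcription factor, was found in 17 of 20, Tek, the angiopoietin receptor, in 15, and the adhesion molecule Pecam1 in 11. Pecam1 was also seen in 37 of 777 microglia-like nuclei. Summed UMIs of Flt1 in the endothelial set were 26 and 50 in the MF libraries (MF1, then MF2) and 29 and 17 in the HF libraries. Its pooled level was 3713 CPM, the usual unit of UMIs scaled to a common total per library, against 0.633 in all other nuclei.

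The mural genes were less exclusive. Pdgfrb, the receptor that recruits pericytes, was detected in 20 of 21 mural and 0 of 20 endothelial nuclei (up to 15% with a UMI allowed), but also in 15 of 63 leptomeningeal and 342 of 2495 astrocyte-like nuclei. Rgs5, a regulator of G protein signalling, was found in 18 of 21 mural nuclei and in no endothelial or leptomeningeal nucleus. Abcc9, a subunit of the potassium channel of pericytes, was detected in 15 of 21 mural nuclei and 19 of the 11414 others, and Notch3, the Notch receptor of mural cells, in 17 of 21. Ebf1, a transcription factor, was in 20 of 21 mural nuclei, but 15 of 20 endothelial and 16 of 63 leptomeningeal nuclei also held it, against 1.32% of all other nuclei. In turn, 10 of 21 mural nuclei held a UMI of Flt1. The shares of Ebf1 and Flt1 across sets are thus far above the shares in nuclei outside them.

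Among the leptomeningeal genes, Col1a2, a chain of type I collagen, was detected in 61 of 63 nuclei and in 0.797% of all others. The matrix proteoglycan gene Dcn was found in 57 of 63, but also in 6.46% of the others, whereas Slc6a13, a GABA transporter, was found in 46 of 63 and only 29 of the 11414 others. Col3a1, of type III collagen, was in 44 and Bnc2, a zinc finger protein, in 22. Pooled levels were 973 CPM for Col1a2 and 473 for Slc6a13 against 1.44 and 0.564 in all other nuclei. The markers proposed for the 3 sets, Flt1, Cldn5, Pdgfrb and Col1a2, therefore carried the labels, since the rule used them. These values describe how the nuclei were chosen and were not tested.

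Around the threshold of 3 genes the sets differed. With 2, 3, 4 and 5 genes detected there were 8, 5, 10 and 5 nuclei for the endothelial genes, 38, 4, 7 and 10 for the mural genes and 35, 30, 25 and 8 for the leptomeningeal genes. The counts were lowest at 3 genes for the mural set, whereas in the leptomeningeal set nuclei just inside the threshold were nearly as many as those just outside. Another 4, 10 and 8 nuclei had at least 3 genes but too many UMIs of Slc17a7 and Gad2, and their median depths were 16812.5, 19685 and 16479 UMIs. They were deeper than any set's median, and they were not among the 104.

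The share of these nuclei did not differ between diets beyond the spread of the libraries. They made up 0.552% of retained nuclei in MF1 (95% exact binomial interval 0.316 to 0.895), 1.11% in MF2 (0.721 to 1.64), 1.24% in HF1 and 0.690% in HF2. Intervals here cover counting error only. The 2 MF libraries differed as much as the 2 HF libraries, and the diets overlapped. Means were 0.832% ± 0.396 (SD, n = 2) in MF and 0.964% ± 0.387 in HF, with p = 0.667 in an exact two-sided permutation test (0.889 after Benjamini-Hochberg adjustment over 4 shares). With 2 libraries against 2, that test cannot go below 0.3333. The difference of 0.132 percentage points turned to -0.147 without MF1 and to -0.141 without HF1.

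Each set varied in its own way. MF1 and MF2 held 4 and 9 endothelial nuclei and HF1 and HF2 held 5 and 2, which in that order are shares of 0.138, 0.400, 0.144 and 0.0690%. MF2 held the most and HF2 the fewest. Mural nuclei numbered 7, 1, 7 and 6, and MF2 alone fell behind, with 0.0445% against 0.202 to 0.241% elsewhere. Leptomeningeal nuclei numbered 5, 15, 31 and 12, from 0.172% in MF1 to 0.893% in HF1. None of the 3 differences between diets passed the exact test (p = 0.667, 1 and 0.667). Without MF2 the mural difference, 0.0614 percentage points higher in HF, became -0.0371, and the leptomeningeal one of 0.234 became -0.0136 without MF1.

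**Figure D1:**
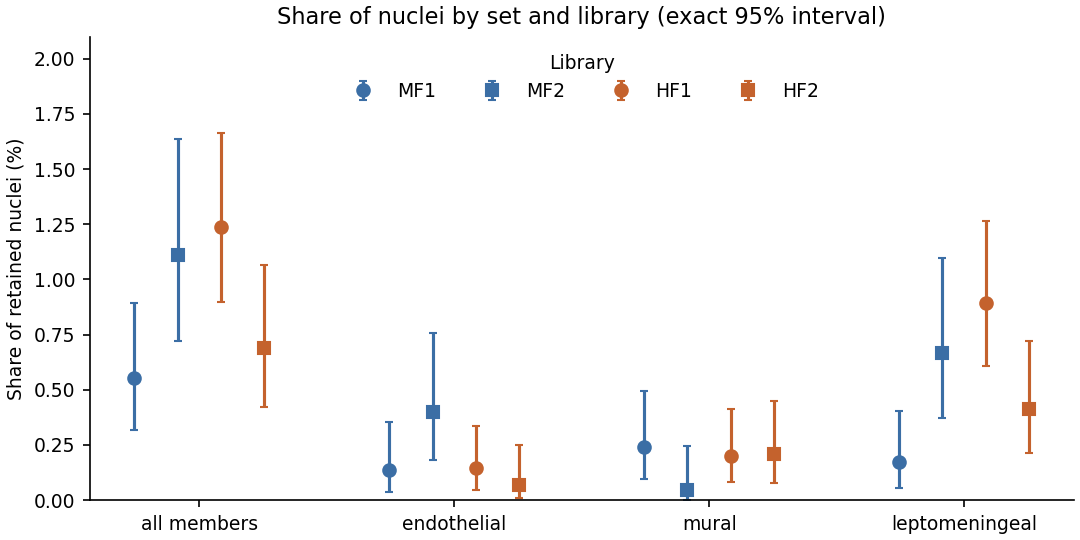
Share of retained nuclei (%, y axis) in all 3 sets together and in each set (x axis), by library, with exact 95% binomial intervals as bars. MF libraries are blue and HF libraries orange, with circles for replicate 1 and squares for replicate 2, and the diets overlap in the pooled share, where MF1 sits at 0.552% and HF1 at 1.24%.

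The RNA of the endothelial set was that of barrier endothelium. Levels are summed UMIs in CPM, are set beside all other nuclei as a description, and were not tested because RNA chose the nuclei. In this shallow set 1 UMI was worth 322 CPM in HF2. Adgrl4, an adhesion receptor of endothelial cells, had 2625, 2102, 1200.2 and 2251 CPM in MF1, MF2, HF1 and HF2, against 0.168 in all other nuclei. Slco1a4, an organic anion transporter of the barrier, had 4724, 6050, 3961 and 2894 CPM against 0.574. Abcb1a, the drug efflux pump P-glycoprotein, had 2099.7, 1783, 960.2 and 643 CPM against 0.386. All 4 libraries held these genes far above the level elsewhere, and Adgrl4 had no UMI in mural or leptomeningeal nuclei. Ptprb, a receptor phosphatase of endothelial junctions, had 1608 to 2975 CPM. Ly6c1, which belongs to a family of similar genes that reads may not tell apart, had 960.2 to 1401. Also among the 20 genes of highest ratio were Erg, an endothelial transcription factor, Eng, a coreceptor of TGF-beta, Esam, a junction molecule, and Nostrin, a partner of nitric oxide synthase.

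Of 17 barrier transporter genes, 14 had at least 10 UMIs in the endothelial set. All 14 were at least 2-fold above the rest, as were 70.6% of all 680 genes with that many UMIs. A minimum set in the endothelial nuclei themselves favours genes that are high there, so these counts are a description. Slc2a1, the glucose transporter of the barrier, had 4, 26, 9 and 2 UMIs in MF1, MF2, HF1 and HF2 (1248 CPM pooled against 8.47 in the rest). Slco1c1, which carries thyroid hormone, had 15, 14, 19 and 10 (1765 CPM against 31.6), and Tfrc, the transferrin receptor, had 8, 12, 12 and 5 (1126 CPM against 38.4). These 3 were above the rest in every library. Abcg2, an efflux pump that also carries folates, had 5, 15, 5 and 6 UMIs (943 CPM against 15.1), and Abcc4, another such pump, had 4, 14, 3 and 4 (761 against 18.1). They were the 2 of 13 folate transport genes with at least 10 UMIs. Of the genes of one-carbon metabolism only Mat2a, which makes S-adenosylmethionine, reached 10 UMIs, with 0, 10, 1 and 0, almost all from MF2.

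Wnt signalling maintains the barrier, and Lef1, a Wnt effector (1096 CPM against 3.86), Apcdd1, a Wnt inhibitor (1065 against 13.2), and the receptor Fzd6 (426 against 2.60) had at least 10 UMIs. Of 10 tight junction genes beside Cldn5, 3 did, among them Ocln (548 CPM against 13.5) and Tjp1 (2465 against 379). Along the arteriovenous axis, 3 of 5 capillary genes reached 10 UMIs (Tfrc 37, Spock2 33 and Car4 28), but 0 of 10 arterial and 0 of 8 venous genes did. At this depth arterial and venous nuclei could not be told from capillary ones. Summed neuronal genes stood at 791 CPM in the endothelial set and at 10744 in all other nuclei.

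The mural set was led by pericyte genes. Vtn, which encodes vitronectin, had 4462, 3085, 4318 and 1621 CPM in MF1, MF2, HF1 and HF2, against 3.01 in the rest. Atp13a5, an ATPase marking brain pericytes, had 6135, 10487, 4177 and 4412 CPM against 6.32. The MF2 values come from 1 nucleus of 1621 UMIs, in which a single UMI is 617 CPM. Igfbp7, a secreted insulin-like growth factor binding protein, had 720.3 to 1851 CPM against 3.35, and was at 913 in endothelial nuclei. Kcnj8, the channel partner of Abcc9, stood at 425 CPM against 0.158, and the proteoglycan gene Cspg4, the NG2 antigen of pericytes, at 505 against 14.3. Of 19 mural identity genes, 12 had at least 10 UMIs and all 12 were at least 2-fold above the rest (59.4% of 748 genes with that many UMIs were). Here too the minimum was set in the nuclei of the set itself, which favours genes that are high there.

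Contractile genes of smooth muscle were scarce in the mural set. Only Myl9, a myosin light chain, of 10 such genes reached 10 UMIs, with 6, 0, 5 and 1, and 6 of the 10 had no UMI at all. Of 20 basement membrane genes, 7 reached 10 UMIs in the mural set. All 7 were at least 2-fold above the rest, as were 59.4% of all genes that passed this minimum, which favours genes high in the set. Among the 7 were Lamc1 (984 CPM against 64.2), Lama4 (612 against 7.15) and Nid1 (505 against 0.515), which encode laminin chains and nidogen. The mural set also held genes of the leptomeningeal list. Slc6a20a, a transporter of proline, stood at 1329 CPM there and 1497 in leptomeningeal nuclei, and Zic1, a zinc finger transcription factor, at 452 and 232. Endothelial nuclei had no UMI of either.

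Genes of other cells were unevenly spread in the mural set. The summed microglial list was 5663 CPM in HF1 and 1441 in HF2 with no UMI in MF1 or MF2. Without the 1 deep nucleus, which came from HF1, the set's level dropped from 2552 to 663, against 411 in all other nuclei. The level of 1441 in HF2 did not change. The deep nucleus held UMIs of 9 genes of the microglial list, 1 mural nucleus of HF2 held 6 and another of HF1 held 3. Tmem119, a defining microglial gene, had no UMI in the set. Summed haemoglobin genes stood at 9202 CPM in MF1 and 900.4 to 1851 in the other libraries. The part of these in the mural values was not tested.

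The leptomeningeal set carried genes of fibroblasts and of the arachnoid barrier. Ptgds, the brain's prostaglandin D synthase, was the most abundant named transcript, with 142, 456, 3616 and 589 UMIs in MF1, MF2, HF1 and HF2. These are 14603, 13312, 27396 and 14800 CPM, against 53.4 in all other nuclei. Every library held it at 13312 CPM or more. Col1a1, the other chain of type I collagen, had 528 to 780.4 CPM against 1.02, and Igf2, insulin-like growth factor 2, had 1028, 613, 773 and 477 against 1.44, with 1028 in HF1 and 884 in HF2 when the deep nuclei were left out. Slc22a6, an organic anion transporter, had 411, 117, 219.7 and 126 CPM against 0.257. Aldh1a2, which makes retinoic acid, had 514, 292, 205 and 75.4 CPM against 0.416. Tbx18, a transcription factor, and Wnt6, a Wnt ligand, were also among the 20 genes of highest ratio, as was Cdh5, the VE-cadherin gene. Cdh5 had 12 UMIs in the set (55.6 CPM) and 1 UMI in endothelial nuclei (30.4 CPM), too few to compare the 2 sets.

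Coverage of the lists was widest here, in the set with the most UMIs (215766, against 32859 in endothelial and 37611 in mural nuclei). Of 25 leptomeningeal identity genes, 23 had at least 10 UMIs, and all 23 were at least 2-fold above the rest, against 23.5% of all 4835 genes with that many UMIs. Of 20 basement membrane genes, 15 had at least 10 UMIs and all 15 passed 2-fold. The minimum was set in the leptomeningeal nuclei themselves and favours genes that are high there, so both counts are a description. Col4a6, a type IV collagen chain, had 1748, 1139, 205 and 377 CPM, and Lama1, a laminin chain, had 1337, 1518, 500 and 829. Both were lower in each HF library than in each MF library. Without the deep nuclei HF1 and HF2 stood at 369 and 465 CPM for Col4a6 and at 931 and 1070.4 for Lama1. These were still under both MF libraries. The summed leptomeningeal identity list was also lower there, at 15045 CPM in HF1 and 12054 in HF2 against 18717 in MF1 and 15502 in MF2. Ptgds went the other way, as given below. How many of all genes lie apart by diet was not counted. In the diet test described below the difference was -1.92 ± 0.55 on the log2 scale for Col4a6 (FDR 0.0705) and -0.74 ± 0.54 for Lama1 (FDR 0.645), and without the deep nuclei it was -1.48 ± 0.49 (FDR 0.822) and -0.26 ± 0.49 (FDR 0.969). The retinoid genes Aldh1a1 (348 CPM against 26.0) and Rbp4 (134 against 4.67) were also above the rest.

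Folate genes were sparse in leptomeningeal nuclei. Only Abcc5, an efflux pump, with 1, 6, 13 and 5 UMIs (116 CPM against 155 in the rest), and Abcg2, with 1, 6, 7 and 3 (78.8 against 15.1), of 13 transport genes reached 10 UMIs. Of 26 one-carbon genes, 5 did. Mtr, methionine synthase, had 1, 2, 8 and 2 UMIs (60.3 CPM against 29.5), Mat2b, a subunit of the S-adenosylmethionine enzyme, had 2, 2, 8 and 6 (83.4 against 39.8), and Mat2a had 4, 6, 12 and 12 (158 against 151). Ahcyl1 stood at 209 CPM against 140 and Ahcyl2 at 329 against 593. Without the deep nuclei the levels were 102 CPM for Abcc5 and Abcg2, 70.5 for Mtr, 62.6 for Mat2b, 141 for Mat2a, 235 for Ahcyl1 and 180.05 for Ahcyl2. Mat2a was thus near the level of all other nuclei, and Ahcyl2, with 58 of its 71 UMIs from HF1, below it either way. Among genes of the arteriovenous lists, Mgp, a matrix protein, had 74 UMIs, Vcam1, an adhesion molecule, 49, Nr2f2, a venous transcription factor, 36 and the ephrin Efnb2 26. These mark position only in endothelial cells.

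**Figure D2:**
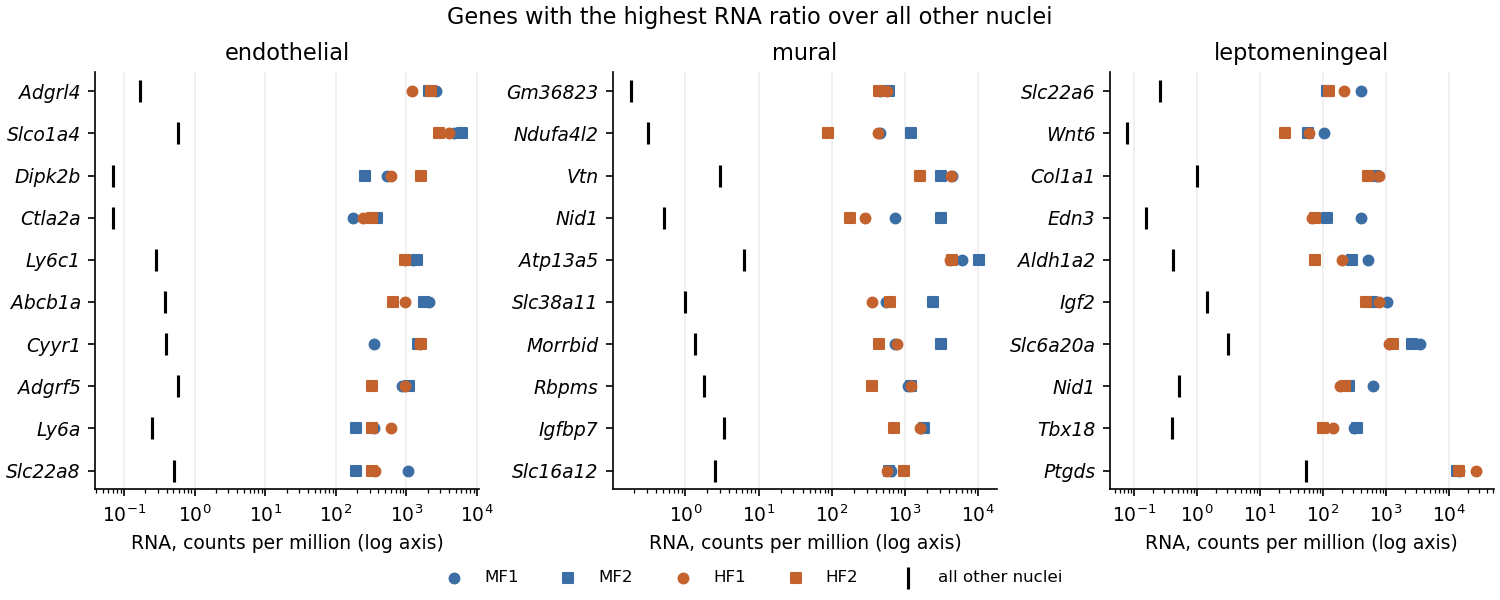
Summed UMIs (CPM, log axis) of the 10 genes with the highest ratio to all other nuclei in each set, 1 panel per set. Coloured points are the 4 libraries and black ticks all other nuclei, and the points lie far to the right of the ticks, as for Slco1a4 at 2894 to 6050 CPM against 0.574.

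Chromatin accessibility did not enter the gene rule, though total ATAC counts were part of the retention filter, and it could be tested. In the deposited matrices 81.1 to 83.1% of nonzero ATAC entries were even numbers, so a count may stand for 1 cut end of a fragment, and small counts need not be independent. Each fit on ATAC counts was therefore repeated, after the data were seen, with every entry halved and rounded up. All genes of the lists that were called higher or lower in a set kept their call and direction there except Apcdd1 in leptomeningeal nuclei (log2 fold change 0.93), which fell under 2-fold. The ATAC counts in regions that had a peak in all 4 libraries were 27882, 78223, 40699 and 21027 for endothelial nuclei in MF1, MF2, HF1 and HF2, 33990, 15533, 64636 and 95007 for mural, and 53982, 173333, 340631 and 203622 for leptomeningeal nuclei. Within 1 kb of its start, Flt1 had 155 CPM of ATAC counts in endothelial nuclei (26 counts), 14.3 in mural, 15.6 in leptomeningeal and 6.73 in all other nuclei. Cldn5 had 59.6 (10 counts) in endothelial nuclei, 14.3 (11 counts) in leptomeningeal, no count in mural and 3.22 CPM in the rest. Rgs5 had 57.4 (12 counts) in mural nuclei, none in the other sets and 2.86 in the rest, while Pdgfrb had 90.8 (19 counts) in mural nuclei, 29.8 in leptomeningeal, none in endothelial and 19.8 in astrocyte-like nuclei. The start of Ebf1 was open in all sets, with 113 CPM in endothelial, 66.9 in mural and 45.4 in leptomeningeal nuclei against 7.38. Col1a2 had 12.96 CPM (10 counts) in leptomeningeal nuclei, none in the other sets and 1.72 in the rest. In leptomeningeal nuclei the start of Mecom (45.4) stood as high as that of Ebf1 and of their own gene Bnc2 (44.1). Pecam1, Tek, Abcc9 and Col3a1 had no such region near a start.

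**Figure D3:**
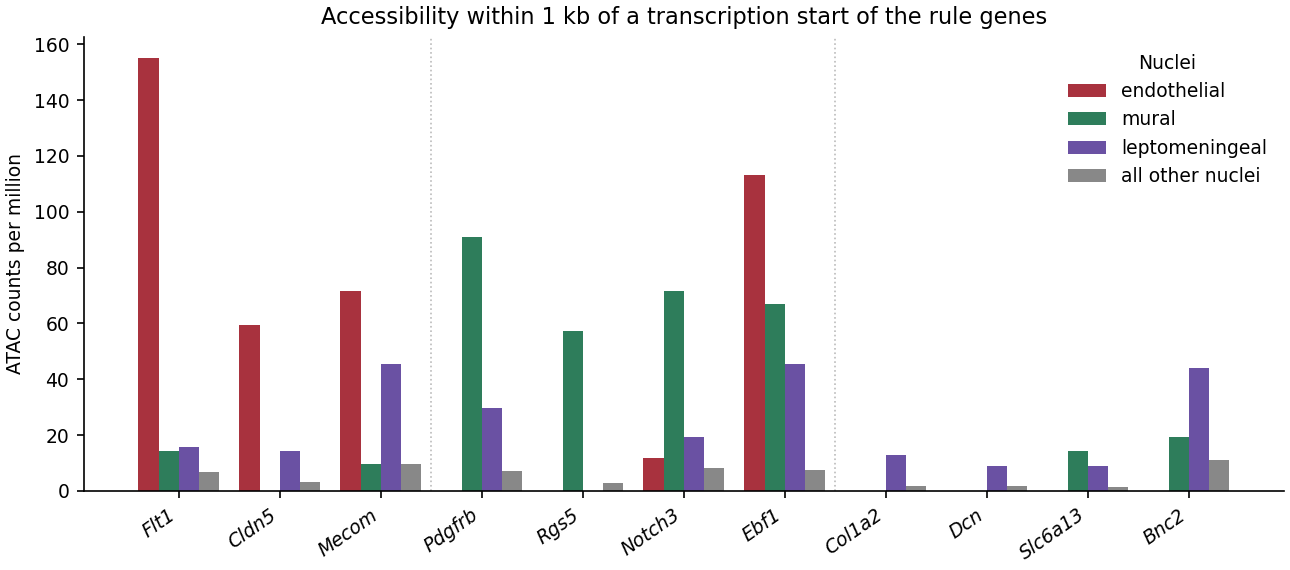
ATAC counts in CPM (y axis) within 1 kb of the starts of the 11 genes of the rule with a shared region, as bars for the 3 sets and all other nuclei. Flt1 reaches 155 in endothelial nuclei and Pdgfrb 90.8 in mural nuclei, while the bars of all other nuclei stay at 11.2 or under.

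The sequences just before 4 of these starts are shown because each had its highest ATAC level in CPM in the set its gene was chosen for. Each is the 250 bases upstream of the annotated start in mm10 (GRCm38), read 5′ to 3′ on the gene's strand, and was read from the reference genome of that build. Flt1 lies at chr5:147726012-147726261 (minus strand), Cldn5 at chr16:18776597-18776846, Rgs5 at chr1:169655251-169655500 and Col1a2 at chr6:4505368-4505617 (plus strand). Capitals mark the only match among 8 motifs searched, the MEF2 pattern (CTA and TAG with 4 bases between them) in Col1a2.
Flt1: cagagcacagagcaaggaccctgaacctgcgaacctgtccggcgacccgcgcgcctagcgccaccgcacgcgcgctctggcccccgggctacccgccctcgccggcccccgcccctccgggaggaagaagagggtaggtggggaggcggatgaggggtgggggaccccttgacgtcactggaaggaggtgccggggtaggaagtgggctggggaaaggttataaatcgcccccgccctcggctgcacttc
Cldn5: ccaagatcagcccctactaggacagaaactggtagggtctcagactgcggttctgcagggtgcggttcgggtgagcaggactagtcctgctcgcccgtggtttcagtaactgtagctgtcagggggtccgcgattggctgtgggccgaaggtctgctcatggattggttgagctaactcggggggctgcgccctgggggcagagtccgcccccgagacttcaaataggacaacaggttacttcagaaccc
Rgs5: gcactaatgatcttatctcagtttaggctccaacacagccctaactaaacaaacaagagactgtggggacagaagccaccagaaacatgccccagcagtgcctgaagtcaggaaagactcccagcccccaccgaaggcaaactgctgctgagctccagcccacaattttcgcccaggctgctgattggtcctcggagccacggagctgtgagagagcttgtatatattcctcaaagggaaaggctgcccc
Col1a2: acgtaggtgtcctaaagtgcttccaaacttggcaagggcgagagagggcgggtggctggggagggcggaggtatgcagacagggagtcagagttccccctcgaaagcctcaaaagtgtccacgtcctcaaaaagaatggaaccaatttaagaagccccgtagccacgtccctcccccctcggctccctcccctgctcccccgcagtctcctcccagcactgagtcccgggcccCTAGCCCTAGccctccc
A match is a description of the letters, and 3.20% of all 32841 promoter windows searched held the MEF2 pattern.

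Gene accessibility summed the ATAC counts of all shared regions in a gene body and the 2 kb before its start. Each set was compared with all other nuclei within each library by edgeR's quasi-likelihood test with the library as a block, and a call needed a 2-fold difference or more and an FDR (the p-value adjusted by Benjamini and Hochberg over all genes tested) under 0.05. The p-values of these gene fits were those of a normal distribution. They thus used a spread pooled over genes and do not measure how far a single gene varied between libraries. Of 22626 genes tested in endothelial nuclei, 38 (0.168%) were called higher and 1507 (6.66%) lower, or 6.83% in either direction. DESeq2 called 191 higher and 2043 lower, and with ATAC entries halved 182 were higher and 1614 lower. This fit was added after the data were seen, as HF2 held only 2 endothelial nuclei. Flt1 had 15, 27, 13 and 11 counts in MF1, MF2, HF1 and HF2, or 538, 345, 319 and 523 CPM, against 29.9 to 37.9 in the rest. No endothelial value overlapped those of the rest (log2 fold change 2.60 ± 0.49 (SE, worked out from the test statistic), FDR 1.25e-05), and the call held whichever library was left out. Kdr, the main receptor for vascular endothelial growth factor, had 6, 20, 22 and 6 counts (3.09 ± 0.60, FDR 2.42e-05) and held likewise. Rgcc, a capillary gene, had 8, 12, 11 and 6 counts (2.09 ± 0.64, FDR 0.023), Fzd6 had 2, 8, 4 and 6 (3.67 ± 1.11, FDR 0.020), and Foxc1, a forkhead factor, had 2, 14, 7 and 2 (3.27 ± 1.06, FDR 0.035). The Rgcc call was lost without MF1, MF2 or HF1, and those of Fzd6 and Foxc1 whichever library was left out, with an FDR of up to 0.152, 0.277 and 0.457. Without MF2, 7 genes were called higher.

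Of 15 barrier transporter genes 0 were called in endothelial nuclei. Their median fitted log2 fold change was 0.57, against -1.52 over all genes tested, and with counts summed over libraries and a gene under 3 counts set to 3 it was 2.10 against 0.63. The values for all genes thus differ in sign between the scales. The fitted median was 1.02 over 15 Wnt genes (2.14 from sums, 1 called higher), 1.01 over 5 capillary genes (2.08, 1 higher) and 0.70 over 13 endothelial identity genes (1.75, 1 higher). Of the 5 endothelial genes of the rule only Flt1 was called. Cldn5 had an FDR of 0.087 and Mecom of 0.18. In the other direction, 7 of 11 neuronal genes were called lower, such as Rbfox1, a neuronal splicing factor, with 2, 4, 2 and 8 counts (-3.80 ± 0.40, FDR 2.3e-17). The rule left out nuclei with more UMIs of Slc17a7 and Gad2 and the rest kept them, so the choice of nuclei favoured such calls. Against nuclei with no more than 1 such UMI, 6 of the 11 were lower. Aldh1l1, an enzyme of folate metabolism and an astrocyte marker, was also called lower, with 0, 6, 0 and 0 counts (-2.93 as fitted). The Aldh1l1 call was lost without HF1 (FDR 0.128). Pdgfrb had no count in endothelial nuclei and was called lower.

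Among genes called higher in endothelial nuclei, the lowest FDR was that of Chl1, a cell adhesion molecule, which was singled out after its values were seen. It had 94, 66, 52 and 24 counts (2.49 ± 0.32, FDR 3.01e-12) and held whichever library was left out. All 236 counts fell in 1 of its 20 regions, chr6:103648645-103649814. That region stood at 1406 CPM in endothelial nuclei, 181 in leptomeningeal, 154 in microglia-like, 86.1 in mural and 33.1 in all other nuclei. The value thus describes 1 region rather than the whole gene. The next lowest FDR was that of Gm10801 (2.15e-07). Regions were not screened for reads that map to several places, and whether such reads raised these values was not tested.

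In mural nuclei 30 genes (0.133%) were called higher and 942 (4.16%) lower (4.3% together), also in a fit added after the data were seen. DESeq2 called 168 higher and 1180 lower, and with ATAC entries halved 160 were higher and 956 lower. Heyl, a Notch target of mural cells, had 12, 3, 21 and 12 counts in MF1, MF2, HF1 and HF2 (2.39 ± 0.58, FDR 0.0029). Cspg4 had 17, 11, 28 and 42 (1.75 ± 0.45, FDR 0.0052) and Myl9 had 4, 6, 8 and 12 (2.87 ± 0.82, FDR 0.016). All 3 were above the rest in every library. Jag1, a Notch ligand, had 11, 2, 13 and 26 counts (1.82 ± 0.55, FDR 0.028), and Foxc1 had 4, 2, 6 and 12 (3.25 ± 1.01, FDR 0.036). Igfbp7, which also led the RNA, had 8, 6, 15 and 16 counts (2.33 ± 0.58, FDR 0.0037). No mural call of a higher gene remained without HF1, where the 7 mural nuclei all had a doublet score over 0.05. Whether those nuclei were doublets was not tested. Without HF1 the FDR was 0.177 for Cspg4, 0.29 for Heyl and 0.165 for Igfbp7. Jag1 was also lost without MF1 or HF2, Cspg4 without MF1 or HF2, Heyl without MF1, Igfbp7 without HF2, and Myl9 and Foxc1 whichever library was left out, and the FDR reached 0.447 for Jag1, 0.242 for Myl9 and 0.406 for Foxc1.

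None of the 5 mural genes of the rule was called, and Pdgfrb had a log2 fold change of 1.07 (FDR 0.302). The median fitted log2 fold change was 1.07 over these 5, 0.40 over 15 mural identity genes (2 higher) and -1.11 over all genes, and from summed counts it was 1.90, 1.69 and 0.51. Neuronal genes were lower, 8 of 11, with Rbfox1 at 7, 3, 9 and 19 counts (-2.79 ± 0.46, FDR 5.1e-07). The choice of nuclei favoured this, as given above, and 6 of the 11 were lower against nuclei with few UMIs of Slc17a7 and Gad2. Aldh1l1 had 2, 2, 0 and 2 counts and was called lower (-2.59), a call lost without HF1 or HF2 (FDR up to 0.407).

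The leptomeningeal set gave the most calls. Of 22626 genes, 359 (1.59%) were called higher and 1727 (7.63%) lower, which is 9.22% of all tested. With 1 library left out the higher calls ranged from 138 (without HF1) to 306 (without MF1). Zic4, a zinc finger transcription factor of the meninges and cerebellum, had 8, 26, 47 and 29 counts in MF1, MF2, HF1 and HF2, or 148, 150, 138 and 142 CPM, against 13.4 to 20.9 in the rest. The 4 libraries were alike and far from the rest (2.82 ± 0.36, FDR 2.38e-12). Foxc1, whose loss disrupts the meninges, had 6, 26, 30 and 4 counts (3.27 ± 0.62, FDR 7.81e-06), and Twist1, a mesenchymal factor, had 4, 9, 11 and 15 (3.55 ± 0.82, FDR 0.00049). These 3 held whichever library was left out. Foxd1, another forkhead factor, had 0, 23, 23 and 11 counts (2.61 ± 0.63, FDR 0.00092) but not without MF2 or HF1 (FDR up to 0.158). The median fitted log2 fold change over 23 leptomeningeal identity genes was 0.78, with 6 higher and 0 lower, against -0.29 over all genes (1.06 and 0.20 from summed counts). The other 2 were Zic1, with 0, 13, 17 and 14 counts (2.10 ± 0.66, FDR 0.018), and Slc6a20a, with 6, 12, 13 and 9 (2.38 ± 0.65, FDR 0.0045), both named after their values were seen. Without MF2 the first reached 0.26 and the second 0.067, and both also passed 0.05 without HF1, as Zic1 did without HF2.

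Foxc1 was called higher in all 3 sets, with log2 fold changes of 3.27, 3.25 and 3.27. The FDR was lowest in leptomeningeal nuclei, which held the most counts. Whether the sets differed from each other was not tested.

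Of 9 retinoid genes 1 was called higher and 1 lower in leptomeningeal nuclei. Aldh1a2 had 8, 9, 38 and 7 counts (2.74 ± 0.58, FDR 0.00010), in the same direction as its RNA, but the call was lost without HF1 (FDR 0.090), which held 38 of its counts. Stra6, the receptor for the retinol carrier, was lower, with 0, 4, 12 and 9 counts (-1.98, FDR 3.3e-06). Jag1 had 9, 25, 48 and 36 counts (1.75 ± 0.29, FDR 2.25e-07), Smad6, an inhibitor of BMP signalling, had 16, 31, 75 and 47 (1.49 ± 0.25, FDR 3.12e-07), and Id3, a BMP target, had 2, 20, 25 and 14 (1.98, FDR 0.0017). Heyl, with 12, 13, 35 and 11 counts, was higher too (1.64, FDR 0.00099), so 4 of 16 genes of the Notch and TGF-beta list were called, none of them lower. Id3 lost its call without MF2 or HF1 (FDR up to 0.101) and Heyl without HF1 (0.0742). Slc6a13 was the only gene of the rule that was called, with 6, 17, 18 and 11 counts (1.72 ± 0.49, FDR 0.0067), and not without MF2 or HF1 (up to 0.138).

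Endothelial genes moved both ways in leptomeningeal nuclei. Ets1, a transcription factor, had 22, 26, 52 and 34 counts (1.23 ± 0.26, FDR 7.37e-05), and Cdh5 had 6, 12, 42 and 12 (1.27 ± 0.39, FDR 0.017). The Cdh5 call was lost without MF2 or HF1 (up to 0.429) and its value was -2.26 when only regions within 2 kb of a start were summed. Emcn was called lower, as was Erg, whose value became 0.0055 with regions within 2 kb of a start. Of 15 fibrillar and other collagen genes, Col6a2 was higher (2.28, FDR 0.035) and Col14a1 (-1.66, FDR 0.043) and Col25a1 (-1.12, FDR 0.0030) lower, each call was lost with some library left out, and Col25a1 turned to 0.33 with regions near starts. By contrast 0 of 20 basement membrane genes were called in either direction. Their median fitted log2 fold change of ATAC counts was 0.20 (0.48 from summed counts).

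Folate genes showed little. Of 13 folate transport genes, Abcc1, an efflux pump, was lower in leptomeningeal nuclei, with 0, 3, 2 and 5 counts (-2.53 ± 0.51, FDR 3.39e-05), and the other 12 were not called. Of 26 one-carbon genes, Gldc, of the glycine cleavage system, was lower, with 0, 7, 17 and 2 counts (-1.49 ± 0.40, FDR 0.0036, and 0.135 without HF2). In this set 7.63% of all 22626 genes were called lower, so 1 of 13 is near that share and 1 of 26 under it. The taurine transporter Slc6a6 was lower too, with 2, 2, 8 and 7 counts (-2.43, FDR 1.9e-08). Neuronal genes were lower in 7 of 11 cases, such as the synaptic gene Syt1, with 2, 2, 25 and 8 counts (-2.71 ± 0.31, FDR 3.9e-15). The choice of nuclei favoured this too, and 5 of the 11 were lower against nuclei with few UMIs of Slc17a7 and Gad2. Of 10 microglial genes 4 were lower, among them Inpp5d (-3.02, FDR 3.0e-05).

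Among all genes called higher in leptomeningeal nuclei, the lowest FDR belonged to Abca4, a lipid transporter that carries retinoids in the eye. It had 23, 59, 124 and 48 counts, or 426, 340.4, 364 and 236 CPM, against 56.5 to 69.8 in the rest. The groups did not overlap (2.08 ± 0.24, FDR 6.79e-15), and the call held whichever library was left out. In mural nuclei Abca4 had 14, 8, 34 and 23 counts (1.79 ± 0.47, FDR 0.0068), a call lost without MF1 or HF1. Rassf2 followed a similar pattern with 6, 51, 66 and 48 counts (1.88 ± 0.26). Abca4 and Rassf2 were named after their values were seen. When leptomeningeal nuclei had to show at least 4 genes of the rule, which keeps the 25 nuclei with 4 and the 8 with 5, only 30 genes were called higher and 564 lower. Zic4, Foxc1, Twist1 and Foxd1 were still called, whereas Zic1, Slc6a20a, Jag1, Smad6, Id3, Heyl, Aldh1a2, Slc6a13, Ets1 and Cdh5 were not. Without nuclei over the doublet score the calls of Slc6a13 and Cdh5 were lost. With only regions within 2 kb of a start 218 genes were higher and 754 lower, and Slc6a13, Ets1, Stra6 and Gldc were not called.

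Of the 11414 comparison nuclei, 6594 had no more than 1 UMI of Slc17a7 and Gad2. Against these alone, 37 genes were called higher and 985 lower in endothelial nuclei, 20 and 534 in mural nuclei, and 241 and 1215 in leptomeningeal nuclei. Foxc1 lost its call in endothelial (FDR 0.0652) and mural nuclei (0.0903), Jag1 in mural nuclei (0.087) and Heyl in leptomeningeal nuclei (0.0616). Zic1 (0.0786), Col6a2 (0.0501) and Apcdd1 (0.0837) were also lost there, and Ets1 was less than 2-fold higher.

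**Figure D4:**
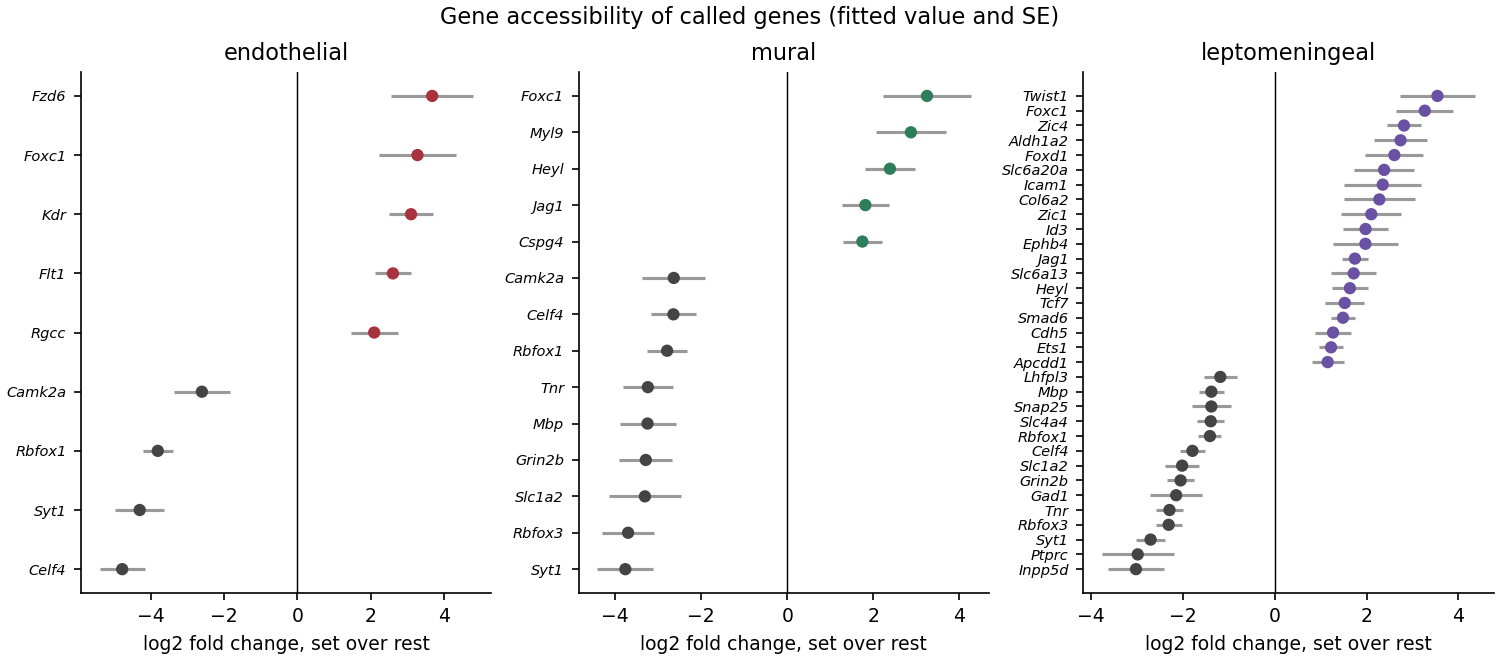
Fitted log2 fold change of gene accessibility (ATAC counts, set against all other nuclei) for called genes of the lists, 1 panel per set, with a standard error worked out from the test statistic. Genes called lower are shown only with more than 3 counts and from the neuronal, astrocyte, microglial and oligodendrocyte lists. Lower genes of other lists, such as Emcn, Erg and Stra6 in leptomeningeal nuclei, are left out. Genes called higher are coloured and genes of other cell types called lower are grey, and Flt1 stands at 2.60 in endothelial, Heyl at 2.39 in mural and Zic4 at 2.82 in leptomeningeal nuclei.

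Single regions could be tested in leptomeningeal nuclei. Of 154713 regions, 182 (0.118%) were called higher and 902 (0.583%) lower, so 16.8% of calls were higher. With RLE normalization in place of TMM 265 were higher and 435 lower, or 37.9% of calls higher, and the median over all regions moved from -3.44 to -3.19. The number rested on single libraries: 36 regions in either direction were called without MF2, 66 without HF1, 89 without HF2 and 729 without MF1. With ATAC entries halved 1026 were higher and 3222 lower, and the 182 all had an FDR under 0.05. Of the 182, 165 had one also without the deep nuclei and 9 had one in each of the fits that left out a library. Regions more than 1 kb from any start made up 137 of the 182 (75.3%), 53.3% of the lower ones and 81.7% of all tested. None of the 182 lay within 1 kb of the start of a gene of the rule.

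The 3 regions of lowest FDR away from starts are printed, since they had the lowest FDR by the naming rule. The first, chr12:79660960-79661951 in an intron of Rad51b, had 7, 19, 30 and 16 counts in MF1, MF2, HF1 and HF2, or 129.7, 109.6, 88.1 and 78.6 CPM, against 2.00 to 3.37 in the rest (4.19 ± 0.53, FDR 1.8e-10). The second, chr8:119339189-119340181, overlaps no annotated gene and lies 4307 bases from the start of Hsbp1. It had 8, 23, 17 and 6 counts (4.74 ± 0.68, FDR 1.35e-07), and the rest had 1.06 to 1.70 CPM. The third, chr2:132042828-132043770, lies 12570 bases from the start of Rassf2, and had 8, 29, 39 and 26 counts (2.79 ± 0.41, FDR 1.47e-07). In each of them the lowest leptomeningeal library was well above the highest of the rest, and each held whichever library was left out. When at least 4 genes of the rule were required, no region was called higher, and these 3 had log2 fold changes of 3.91, 3.95 and 2.30 with FDR of 0.0656, 0.198 and 0.198. Another region of low FDR, on an unplaced scaffold with no annotated start, is not described. The central 300 bases are given on the plus strand of mm10 (chr12:79661306-79661605, chr8:119339536-119339835 and chr2:132043150-132043449), with matches to the motifs below in capitals.
Rad51b intron: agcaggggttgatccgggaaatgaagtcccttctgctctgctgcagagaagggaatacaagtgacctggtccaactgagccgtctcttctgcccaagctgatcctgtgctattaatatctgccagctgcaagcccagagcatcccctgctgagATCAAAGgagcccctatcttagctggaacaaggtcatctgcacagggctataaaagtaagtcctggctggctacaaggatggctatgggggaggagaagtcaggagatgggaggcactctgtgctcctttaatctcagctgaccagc
Near Hsbp1: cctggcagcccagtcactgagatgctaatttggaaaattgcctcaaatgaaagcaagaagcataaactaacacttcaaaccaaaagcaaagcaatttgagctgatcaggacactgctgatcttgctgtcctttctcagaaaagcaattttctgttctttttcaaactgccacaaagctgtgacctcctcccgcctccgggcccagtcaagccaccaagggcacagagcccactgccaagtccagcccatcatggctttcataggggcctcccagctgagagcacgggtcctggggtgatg
Near Rassf2: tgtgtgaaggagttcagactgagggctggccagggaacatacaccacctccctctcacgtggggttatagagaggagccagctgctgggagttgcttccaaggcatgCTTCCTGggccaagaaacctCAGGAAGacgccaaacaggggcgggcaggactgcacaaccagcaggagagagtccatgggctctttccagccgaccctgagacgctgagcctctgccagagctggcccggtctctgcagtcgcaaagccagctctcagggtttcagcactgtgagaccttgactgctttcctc
The first holds the TCF-LEF pattern on the opposite strand (ATCAAAG) and the last holds the ETS pattern on each strand (CTTCCTG and CAGGAAG).

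The 8 motifs were searched on both strands in the central 300 bases of the regions away from starts. The ETS and TEAD patterns share the letters GGAA, and no motif contains another. ETS (CAGGAAG) was in 15.3% of the 137 higher windows, 16.2% of the 481 lower ones and 12.4% of all 126371. TCF-LEF (CTTTGAT) was in 7.30, 2.08 and 4.31%, and FOX (TGTTTAC) in 6.57, 2.91 and 4.20%. TEAD (CATTCCA) was in 8.03, 4.99 and 5.74%. AP-1 (TGANTCA), SOX (ACAATG) and MEF2 were each less frequent in the higher windows than in all windows, at 13.9, 13.9 and 4.38% against 15.3, 16.3 and 5.13%, and EBF (TCCC and GGGA with 2 bases between them) was in 0.730 against 0.800%. Mean GC content was 52.5% in higher, 52.8% in lower and 46.8% in all windows. These shares are descriptions with no test.

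Diet was compared within all 104 nuclei by library sums of UMIs, with calls at FDR under 0.05 and at least 1.2-fold. In bulk sums of this kind fewer nuclei of a set and less RNA per nucleus cannot be told apart. Of 1273 genes tested, 49 (3.85%) were called higher in HF and 8 (0.628%) lower, 4.48% in all. Of the fixed lists only that of oligodendrocyte progenitors held a higher gene (Tnr), and of 11 neuronal genes 3 were tested and 0 called. Nkain2, of a membrane protein, had 0 and 1 UMIs in MF1 and MF2 but 292 and 81 in HF1 and HF2 (7.14 ± 0.91, FDR 0.0308). Dcc, an axon guidance receptor, had 0, 2, 161 and 88 (5.87 ± 0.86, FDR 0.0308). Both HF libraries were above both MF libraries in each of these genes, which had been called from these same values.

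Those UMIs came from a few nuclei. Each of the 49 genes had between 66.2 and 98.6% of its UMIs in the 7 deep nuclei, with a median of 88.5%. Without them Nkain2 had 4 UMIs in HF1 and 1 in HF2. In all other nuclei of the series, neurons and glia together, Nkain2 stood at 3011 CPM. Without the deep nuclei 906 genes passed the low-count filter and edgeR called 0 in either direction, with 35 at an unadjusted p under 0.05, but only 2 of the 49 genes were among those tested. With no low-count filter, an alternative added after the data were seen, all 49 were fitted without the deep nuclei. All 49 stayed above 0 (median log2 fold change 1.91) and 20 had an unadjusted p under 0.05, beside 7958 of all 13605 genes above 0 (median 0.31) and 349 at such a p. These 49 had been picked for being higher in HF. One of them, Dcc, was called (FDR 0.00135), with 0, 2, 4 and 59 UMIs left in MF1, MF2, HF1 and HF2, so nearly all came from HF2. That fit called 3 genes, the others being Il1r1 and Col25a1, both lower. With the filter and all 104 nuclei, none was called without MF2, and 116 were without HF2. None was called when 4 genes of a set were required. DESeq2 called 50 higher and 4 lower on the same counts.

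Among the 8 lower genes, Ly6c1, Adgrl4 and Egfl7 were on the endothelial identity list and Abcb1a on that of barrier transporters. Il1r1, the interleukin 1 receptor, had 9, 32, 2 and 0 UMIs in MF1, MF2, HF1 and HF2 (-5.20 ± 0.76, FDR 0.0308). Abcb1a had 12, 33, 10 and 5 (-2.59 ± 0.54, FDR 0.043). Tek, with 6, 22, 7 and 2, was a gene of the rule, so its call is drawn from values that chose the nuclei. In CPM, both MF libraries were above both HF libraries in all 8 genes, which had been called from these same values. How many of all genes tested lie apart in this way was not counted. The others were Prkch, a protein kinase C (5, 12, 1 and 0), Kank3 (7, 14, 2 and 1), Ly6c1 (7, 22, 8 and 3), Adgrl4 (15, 33, 10 and 7) and Egfl7, an endothelial matrix gene (5, 13, 5 and 1). Endothelial nuclei were 4 of the 16 nuclei of MF1 and 9 of the 25 of MF2, against 5 of 43 for HF1 and 2 of 20 for HF2. The part of this make-up in the calls was not tested. Within endothelial nuclei alone Abcb1a was lower in both HF libraries (960.2 and 643 CPM) than in both MF libraries (2099.7 and 1783), whereas Adgrl4 in HF2 (2251 CPM) lay between the MF values of 2625 and 2102. These levels come from 2 to 9 nuclei a library and were not tested. The deep nuclei held 0 to 6.67% of the UMIs of the 8 genes. Without them, 5 of the 8 passed the low-count filter and none was called, with log2 fold changes of -4.47 for Il1r1 (FDR 0.239), -3.05 for Kank3, -2.36 for Abcb1a, -1.79 for Adgrl4 and -1.69 for Ly6c1. With no low-count filter all 8 stayed below 0 with an unadjusted p under 0.05, and Il1r1 was called (FDR 0.00464).

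In leptomeningeal nuclei alone, 62 of 720 genes (8.61%) were called higher in HF and 0 lower, with 107 at an unadjusted p under 0.05 and 52 called by DESeq2. All 62 had 69.8 to 99.3% of their UMIs in the 6 deep leptomeningeal nuclei. Without those nuclei 0 of 447 genes were called (25 at an unadjusted p under 0.05), but only 1 of the 62 passed the low-count filter there. With no such filter 60 of the 62, which were picked for being higher, stayed above 0 (8009 of all 12184 genes did, with a median of 0.65), 18 had an unadjusted p under 0.05 and 0 were called. Without MF1 0 genes were called, and without MF2 8. The summed neuronal list stood at 823, 1401, 6379 and 1960 CPM in MF1, MF2, HF1 and HF2, and without the deep nuclei at 1509 in HF1 and 2792 in HF2, against 10049 to 11652 in all other nuclei. The summed oligodendrocyte list was 8267 CPM in HF2 and 309 to 469.7 in the other libraries, and without the deep nuclei the pooled level went from 1896 to 438. Their part in the remaining values was not tested.

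**Figure D5:**
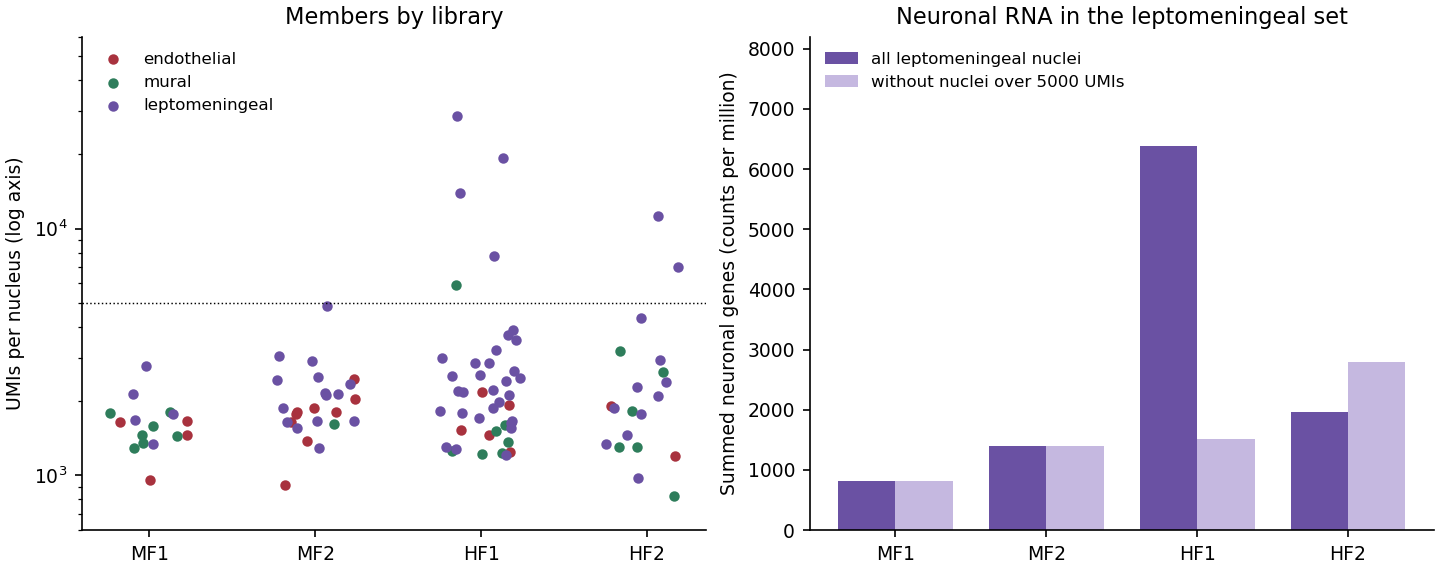
Left, UMIs per nucleus of the 104 nuclei by library and set, with a dotted line at 5000 UMIs. Right, summed neuronal genes (CPM) in leptomeningeal nuclei by library, with and without the nuclei over that line, where HF1 goes from 6379 to 1509.

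Genes of the leptomeningeal set itself showed no called difference between diets. Ptgds had 14603 and 13312 CPM in MF1 and MF2 and 27396 and 14800 in HF1 and HF2 (1.06 ± 0.70, FDR 0.581). Without the deep nuclei HF1 stood at 54561 and HF2 at 27226, both above both MF libraries, but the difference still missed the threshold (1.87 ± 0.83, FDR 0.845). Of 11 leptomeningeal identity genes tested in all 104 nuclei none was called, and the same held for 9 basement membrane and 3 mural identity genes. Of 7 endothelial identity genes 3 were called lower in HF, beside 0.628% of all 1273 genes tested. Endothelial nuclei were a larger part of the MF libraries, as given above, and the part of this in those calls was not tested. The median log2 fold change was -1.87 over these 7 genes and -2.40 over 3 erythroid genes, of which 0 were called. Only 1 folate transport and 2 one-carbon genes had enough UMIs to be tested, and none was called. The other genes of those lists had too few UMIs for the low-count filter and were not tested.

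Diet made no called difference in accessible regions. Of 9396 regions tested over the 104 nuclei, edgeR called 0 (0.0%), with 461 at an unadjusted p under 0.05, and DESeq2 called 0, with 171. Without MF2, 24 were called. The region of lowest p, chr17:83275845-83276802, overlaps no annotated gene and had 19, 24, 10 and 6 counts in MF1, MF2, HF1 and HF2 (-2.31 ± 0.55, FDR 1.0). A region at the start of Pofut2, which encodes a fucosyltransferase, chr10:77258778-77259697, had 8, 16, 63 and 51 counts (1.43 ± 0.40, FDR 1.0), and one at Mblac1, chr5:138194017-138194902, had 13, 28, 10 and 6 (-2.16 ± 0.56, FDR 1.0). In these 3, picked for a low p on the same counts, the CPM values of the diets did not overlap, but none passed adjustment over all regions tested. The remaining 2 of the 5 lowest lay at Supt3 and Runx2 (chr17:44776764-44777614, higher in HF) and at Rapgef3 (chr15:97750384-97751282, lower in HF).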

How the data were processed

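The authors deposited matrices of RNA counts (UMIs per gene and nucleus) and of ATAC counts for each peak in each nucleus, where every library had its own peak set; they had been made with Cell Ranger ARC 2.0.1 on mm10, and the submitters' notes also name Seurat. These counts were not normalized. Both modalities were joined by barcode. Deposited totals were 39223075 to 47460174 UMIs and 79982157 to 113105243 ATAC counts per library. Of 14297 nuclei 11518 passed the filters given above, and the study's filters on nucleosome signal and enrichment at starts, which need fragment files, were not used here. Region starts are printed counting from 1. The 154785 regions with a peak in all 4 libraries were analysed, and 31372 of 32285 gene features matched 1 gene of GENCODE M21.

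The members and all gene lists were chosen with earlier results of these data known. The lists come from general knowledge and hold identity, barrier, signalling, zonation, matrix, folate and other cell type genes. Genes were named by rule: the 15 genes of the rule, in each list up to 4 called genes per direction with the smallest FDR, the 20 genes of highest RNA ratio with at least 10 UMIs in a set and UMIs in every library, up to 10 called genes per diet direction or else the 5 of smallest p, folate, one-carbon and zonation genes with at least 10 UMIs, and the 3 called regions of smallest FDR more than 1 kb from a start; exceptions are stated. Some genes that these rules name are not reported here. Comparison nuclei were astrocyte-like or microglia-like when at least 3 genes of those lists were detected. Doublet scores came from Scrublet at an expected rate of 0.03, run per library in scanpy 1.11.5. Nuclei with a score over 0.05 were kept in every main result and left out in 1 alternative. This score was exceeded by 15.2% of the 11414 others, far more than the expected rate, so it does not by itself mark a doublet. The deepest of the 104 nuclei, with 28617 UMIs, scored 0.0244 and was not over it. The automatic threshold called 44 of the 104 nuclei and 1490 of the 11414 others. It called 23 of the 25 chosen nuclei of MF2 but no nucleus of HF2, and was not used.

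Counts were summed per library and set and tested with edgeR 4.0.16 (quasi-likelihood F test, two-sided, TMM factors, filterByExpr) on R 4.3.3 with limma 3.58.1, and FDR is the Benjamini-Hochberg adjusted p over all features tested. Sets with at least 5 nuclei in every library were to be tested, which left the leptomeningeal set, and the endothelial and mural fits on genes were added after the data were seen, as were the alternatives without nuclei over 5000 UMIs (also with no low-count filter) and with ATAC entries halved and rounded up. The edgeR test gives no standard error. The value after ± of a fold change is its size divided by the square root of F, and so restates the test. The tests were tried on simulated data. Alternatives were DESeq2 1.42.0, RLE factors, no low-count filter, other membership, nuclei over the doublet score left out, another comparison group, another definition of gene regions, no block and each library left out. Shares were compared by exact permutation in scipy 1.17.1 on Python 3.11.15. Sequences and the promoter windows are from RefSeq, build GRCm38.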

Additional observations from a re-analysis of the deposited data

How the results depend on the processing

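The direction of the diet difference in shares was not stable: it became -0.147, -0.141 and -0.103 percentage points for all 3 sets together without MF1, without HF1 and without nuclei over the doublet score, -0.0371 and -0.0851 for mural nuclei without MF2 and without such nuclei, and -0.0136 and -0.00550 for leptomeningeal nuclei without MF1 and without HF1. With 1 library left out these differences ranged from -0.147 to 0.412, from -0.0371 to 0.160 and from -0.0136 to 0.481, and from -0.294 to -0.0315 for endothelial nuclei. The number of genes called between diets was 140 without a low-count filter, 14 without nuclei over the doublet score, 0 with at least 4 genes of a set, 0 without nuclei over 5000 UMIs (3 if the low-count filter is dropped too) and 0 to 116 with 1 library left out. In leptomeningeal nuclei it was 110, 19, 0, 0 and 0 to 119. With the replicate number as a block it was 81 and, in leptomeningeal nuclei, 0, and 1 region was called. The labels do not say that the numbers pair libraries, and with 2 pairs the deviations of same-numbered libraries correlated at 0.0841 over 1629 genes and 0.224 over 1055. Regions called between diets ranged from 0 to 24 with 1 library left out. For gene accessibility, leptomeningeal calls numbered 3866 without a block for library, 594 with at least 4 genes, 972 with 2 kb around starts and 1073 to 1702 with 1 library left out. Endothelial calls numbered 1022 against nuclei with few Slc17a7 and Gad2 UMIs and 620 to 1123 with 1 library left out, and mural calls 554 and 255 to 825. Higher calls alone numbered 191 and 168 with DESeq2, and 182 and 160 with ATAC entries halved, in endothelial and mural nuclei. Leptomeningeal regions called numbered 6046 with DESeq2, 700 with RLE factors, 62625 without the block, 3 with at least 4 genes (0 of them higher), 1695 over regions with a peak in at least 2 libraries, 2650 without nuclei over 5000 UMIs, 4248 with ATAC entries halved and 36 to 729 with 1 library left out. With 2 kb around starts Cdh5 (-2.26), Col25a1 (0.33) and Erg (0.0055) turned in leptomeningeal nuclei. The median fitted log2 fold change over all genes was -1.52 in endothelial and -1.11 in mural nuclei with edgeR and -0.82 and -0.68 with DESeq2. The cause was not tested, except that fewer nuclei or libraries also leave fewer counts. The endothelial and mural sets held 32859 and 37611 UMIs in all. Where a library was left out, the lone library of its diet was taken to vary like the others.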

Other observations

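Ttr, the transthyretin of choroid plexus, stood at 179 CPM in all other nuclei of HF1, 11.1 in MF1, 3.38 in HF2 and 0.149 in MF2. The leptomeningeal nuclei held 9 UMIs of it in HF1 and 1 in MF1, and the endothelial nuclei 5 in HF1.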
